A study of Mus musculus with 6 samples.

Results

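The genes of bone morphogenetic protein (BMP) signalling and the inhibitor of DNA binding (Id) genes were examined in TuBo cells, which derive from a tumor that arose in the mammary gland of BALB/c-MMTV-NeuT mice. In this model, the mouse mammary tumor virus (MMTV) promoter drives the activated rat HER2 homolog neu, so mock and p140Cap cells share that transgene. Members were the rows of the deposited read counts with the symbols Id1, Id2, Id3, Id4, Bmp4, Bmpr1a, Bmpr2, Smad1, Smad5 and Smad6, which made 10 of 21960 genes. RNA-Seq was available for 3 mock libraries, labelled wt, and 3 libraries overexpressing the adaptor protein p140Cap. The p140Cap cells carry a retroviral p140Cap cDNA in pBabe-puro and were selected with puromycin. Individual p140Cap-expressing clones grown from single cells were then pooled, so the p140Cap cells represent 1 pooled population. The paper's methods do not say how the mock cells were made. Effects of selection and cloning therefore cannot be told apart from those of p140Cap. GEO's sample labels name a cell line and its design text names mice, and the samples were taken to be the TuBo cells described in the paper. The sources used here do not say whether the libraries of a group came from separate cultures, so p-values measure the spread between these libraries, which may be technical.

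BMPs are secreted ligands of the TGF-β family. They assemble type I and type II serine/threonine kinase receptors, which phosphorylate the receptor-regulated Smads Smad1, Smad5 and Smad9, and these enter the nucleus with Smad4 and switch on target genes. The Id genes are classical targets. Id proteins have a helix-loop-helix domain but no DNA-binding basic region, and they hold bHLH transcription factors of the E protein class in dimers that cannot bind DNA. In the mammary gland, Id1 is associated with proliferating and undifferentiated epithelium, and Id2 is needed for the expansion of alveolar cells in pregnancy.

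Total reads on genes ranged from 33058719 to 75506562 in the mock group and from 13770385 to 15364850 in the p140Cap group, so each mock library was deeper. Srcin1, which encodes p140Cap, ranged from 509 to 1192 reads per mock library and from 30546 to 36989 reads per p140Cap library, which matches the labels. Of the 7 luminal epithelial markers examined (Epcam, Cdh1, Krt8, Krt18, Krt19, Cldn3 and Cldn7), 6 had enough reads for a test, and their summed level was 5111 to 5484 reads per 1000000 normalized reads (CPM) in mock cells and 5969 to 6139 CPM in p140Cap cells. Of 6 leukocyte markers, 5 had no read in any library. The summed level of 6 fibroblast markers was 9.93 to 10.5 CPM in mock and 11.3 to 14.1 CPM in p140Cap cells, with 4 of them (Col1a2, Col3a1, Dcn and Lum) without a read. The sum of 4 endothelial markers was at most 0.734 CPM and that of 5 basal or myoepithelial markers at most 0.659 CPM in any library. The part of the slightly higher epithelial and fibroblast sums in the differences reported for p140Cap cells was not tested.

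Id1 and Id3 were lower in p140Cap cells, Id2 was not called, and Id4 was marginally higher. Downstream of the receptors, Smad1 was higher and Smad5 slightly lower, and among the receptors Bmpr2 was higher. Of the 9 members with enough reads for a test, 3 were lower (Id1, Id3 and Smad5), 3 were higher (Id4, Bmpr2 and Smad1) and 3 were not called (Id2, Bmpr1a and Smad6) at a threshold of 0.05 on the adjusted p (quasi-likelihood test of edgeR, adjusted by Benjamini-Hochberg over 11800 genes). Id3 is counted here although it passed the low-count filter through the mock group alone, and without it 2 members were lower. In the same comparison 35.9% of all genes tested were lower and 35.2% were higher, 71.1% in all, and the share of members called was close to that background. The median log2 fold change was -0.04 over the tested members and 0.00 over all genes tested. In bulk RNA, fewer cells that express a gene and less RNA per cell cannot be told apart.

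**Figure D1:**
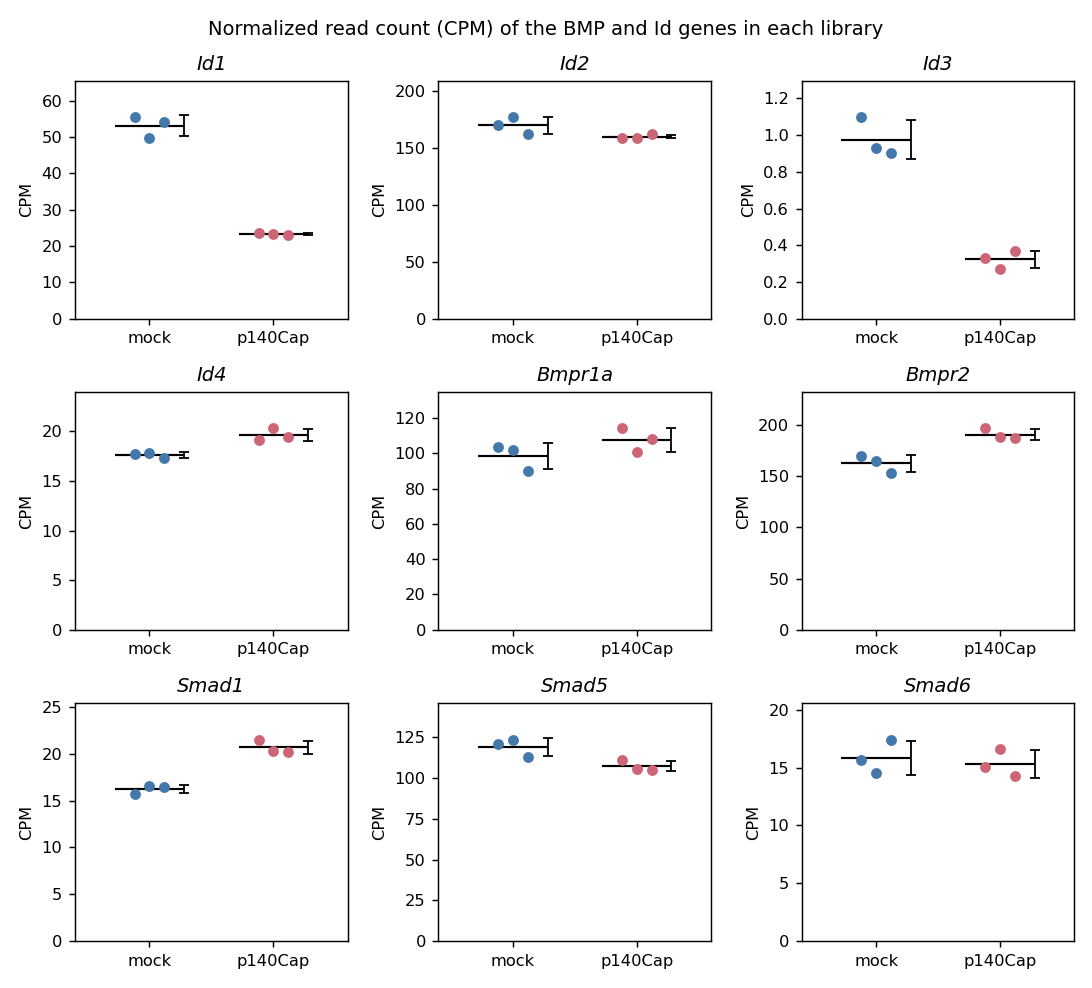
Normalized read count (CPM, linear axes from 0) of the 9 members with reads in each of 3 mock and 3 p140Cap libraries. Points are libraries, horizontal lines are means and bars on the right are ± 1 SD. Id1 lies between 49.8 and 55.5 CPM in mock cells and between 23.0 and 23.6 CPM in p140Cap cells, while Smad6 overlaps between groups.

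Id1 (ENSMUSG00000042745) is a protein-coding gene on chromosome 2, from 152736251 to 152737410 in the GRCm38.p6 annotation of RefSeq, the build that the submitters' processing notes name as mm10. Mock libraries 1 to 3 held 4244, 1982 and 1800 of its reads and p140Cap libraries 1 to 3 held 358, 344 and 313. After normalization this was 55.5, 49.8 and 54.1 CPM for mock and 23.6, 23.4 and 23.0 CPM for p140Cap. Every mock library was thus above every p140Cap library, and the p140Cap libraries lay within 1 CPM of each other. The mean fell from 53.1 ± 2.93 CPM to 23.3 ± 0.314 CPM (SD, n = 3 each). This gave a log2 fold change of -1.19 with an SE of 0.06 (edgeR, adjusted p = 7.1e-11), or a level 2.28 times higher in mock cells. A decrease of at least 1 log2 unit was called for 5.04% of all genes tested. Only 3.6% of genes had a lower log2 fold change than Id1, and by p it stood at position 250. Under the 13 alternative analyses its log2 fold change stayed between -1.23 and -1.14 and was called in each.

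Id3 (ENSMUSG00000007872; chromosome 4, 136143822 to 136145392, plus strand) was a rare transcript. Its reads numbered 84, 37 and 30 in mock cells and 5, 4 and 5 in p140Cap cells. These correspond to 1.10, 0.930 and 0.901 CPM in mock cells and 0.330, 0.272 and 0.367 CPM in p140Cap cells. All mock values were above all p140Cap values, with more scatter in proportion to the level than for Id1. From the 151 reads of all mock libraries and the 14 reads of all p140Cap libraries, the level was 3.13 times higher in mock cells. The 95% exact binomial interval, 1.81 to 5.87, takes in counting error alone. The fitted log2 fold change was -1.62. Id3 entered the test through the mock group alone, since no p140Cap library reached the minimum of the low-count filter, 0.413 CPM before TMM scaling, so that fitted value is given as a description without its p. Without any low-count filter, the log2 fold change was -1.65 (edgeR, adjusted p = 4.91e-05). Requiring a minimum of 10 reads per library removed it.

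Id2 (ENSMUSG00000020644; chromosome 12, 25093799 to 25096092, minus strand) was abundant, with 13004, 7022 and 5381 reads for mock and 2406, 2331 and 2199 reads for p140Cap. Its normalized values were 169.9, 176.6 and 161.6 CPM in mock cells and 158.6, 158.8 and 161.5 CPM in p140Cap cells. The lowest mock library and the highest p140Cap library all but coincided. Mock cells averaged 169 ± 7.50 CPM and p140Cap cells 160 ± 1.64 CPM (SD, n = 3 each). The log2 fold change of -0.09 (edgeR, SE 0.05, 95% interval -0.19 to 0.02, adjusted p = 0.118) did not pass the test, although the interval leaves out any change as large as that of Id1. Without mock replicate 3 it was -0.12 and passed (edgeR, adjusted p = 0.0332). Over the 13 alternatives the adjusted p lay between 0.0332 and 0.348.

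Id4 (ENSMUSG00000021379; chromosome 13, 48261116 to 48266028, plus strand) had 1355, 710 and 576 reads in mock and 290, 298 and 265 reads in p140Cap libraries. The normalized values were 17.7, 17.9 and 17.3 CPM in mock cells against 19.1, 20.3 and 19.5 CPM in p140Cap cells, with all p140Cap libraries above all mock libraries. The ranges of the 2 groups did not overlap for 73.4% of all genes tested either. The log2 fold change was 0.15 (edgeR, SE 0.07, adjusted p = 0.0484) and was above 0 under every alternative, but it was called under only 1 of 13, so the call depends on the processing. Leaving out any single library was enough to lose it, with an adjusted p between 0.0684 and 0.156 (edgeR).

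The upstream sequences of the Id genes and of Smad6, the members that are themselves BMP targets, are shown because these genes did not move together. RefSeq promoters of GRCm38.p6 matched 9 of the 10 members, all but Id1. The 250 bases before the start used in that promoter table are given 5′ to 3′ on the strand of the gene, in lower case, with the palindrome GGCGCC, the core of a BMP-responsive element, in capitals. They span chr12:25096093-25096342 (minus) for Id2, chr4:136143572-136143821 (plus) for Id3, chr13:48260866-48261115 (plus) for Id4 and chr9:64022060-64022309 (minus) for Smad6. The start used for Smad6 lies inside the gene's annotated span, so the last bases of its window overlap the gene, whereas the other 3 windows end at the gene's edge.
Id2: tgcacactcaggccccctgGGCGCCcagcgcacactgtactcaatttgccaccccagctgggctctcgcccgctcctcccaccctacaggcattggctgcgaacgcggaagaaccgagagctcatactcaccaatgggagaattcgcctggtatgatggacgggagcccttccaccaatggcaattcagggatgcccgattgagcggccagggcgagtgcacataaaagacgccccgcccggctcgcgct
Id3: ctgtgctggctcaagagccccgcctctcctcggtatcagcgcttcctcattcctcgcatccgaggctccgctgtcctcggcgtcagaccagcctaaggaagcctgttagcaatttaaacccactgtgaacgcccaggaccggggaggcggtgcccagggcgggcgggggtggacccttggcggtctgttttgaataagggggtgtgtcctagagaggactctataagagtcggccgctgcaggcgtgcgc
Id4: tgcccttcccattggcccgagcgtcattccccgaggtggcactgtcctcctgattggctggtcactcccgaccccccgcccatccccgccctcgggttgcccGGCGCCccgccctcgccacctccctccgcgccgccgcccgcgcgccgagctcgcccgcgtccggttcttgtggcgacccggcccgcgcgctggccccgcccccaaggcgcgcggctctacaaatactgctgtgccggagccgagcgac
Smad6: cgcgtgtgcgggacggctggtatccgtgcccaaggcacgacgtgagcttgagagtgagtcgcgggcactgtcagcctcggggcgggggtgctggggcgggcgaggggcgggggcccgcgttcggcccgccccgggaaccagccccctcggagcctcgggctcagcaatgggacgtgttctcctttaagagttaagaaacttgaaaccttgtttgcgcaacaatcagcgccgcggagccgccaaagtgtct
GGCGCC occurred in the windows of Id2 and Id4, starting 231 and 148 bases before the start, and not in those of Id3 and Smad6. Bmpr1a, Bmpr2 and 1 of the 3 annotated starts of Smad5 also held it. Of all 32851 promoter windows of the same length, 9.59% held this motif. The Smad-binding sequences GTCTAGAC (a palindrome, in 0.167% of windows) and CAGACA (searched on both strands, in 17.1%) were not found in the window of any member, and no motif searched overlapped another. A match describes these letters alone.

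Levels of different genes were compared per kilobase of merged exon of the GENCODE vM39 annotation. That length, 1775 bases for Id1 and 3485 for Id2, exceeds their whole RefSeq spans in GRCm38.p6, 1160 and 2294 bases. The order of the genes and the shares of the Id genes given below therefore depend on the annotation. They were not recomputed with another one. In mock cells the order by CPM per kilobase was Id2 at 48.6 ± 2.15, Id1 at 29.9 ± 1.65, Smad5 at 15.4 ± 0.727, Bmpr1a at 12.7 ± 0.952 and Bmpr2 at 9.0 ± 0.45 (SD, n = 3 libraries). Below them stood Smad6 at 4.47 ± 0.418, Id4 at 3.83 ± 0.0625, Smad1 at 1.77 ± 0.0517 and Id3 at 0.545 ± 0.0593 CPM per kilobase. In p140Cap cells Id2 stayed highest, at 45.8 ± 0.471, whereas Id1 at 13.1 ± 0.177 came after Smad5 at 13.9 ± 0.410 and Bmpr1a at 13.9 ± 0.861 CPM per kilobase. With these exon lengths, Id1 was below Smad5 in every p140Cap library, whereas the range of Bmpr1a overlapped both. Smad6 at 4.32 ± 0.332 and Id4 at 4.27 ± 0.132 did not differ beyond their spread.

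The summed level of the 4 Id genes was 82.9 ± 1.70 CPM per kilobase in mock and 63.4 ± 0.305 in p140Cap cells (SD, n = 3 each). Id1 made up 37.0%, 33.8% and 37.6% of that sum in the mock libraries and 21.1%, 20.8% and 20.3% in the p140Cap libraries. The share of Id2 was 58.6% ± 2.03 in mock and 72.2% ± 0.414 in p140Cap cells. Ratios of reads within a library do not depend on the scaling between libraries. The ratio of Id1 to Id2 reads was 0.326, 0.282 and 0.335 in mock and 0.149, 0.148 and 0.142 in p140Cap libraries, a log2 difference of -1.10. No p140Cap library reached the lowest mock ratio, and the two-sided exact permutation test gave p = 0.1, the smallest that 3 against 3 libraries allow.

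**Figure D2:**
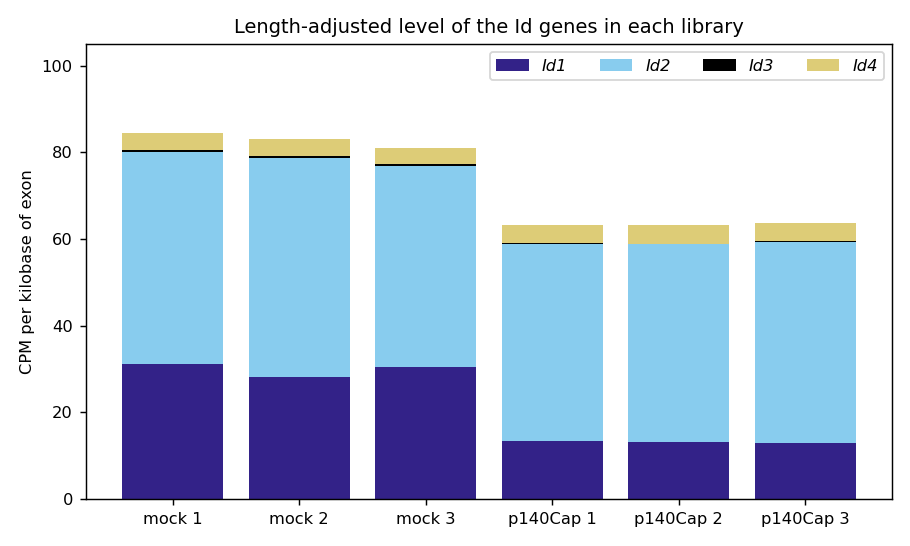
Stacked bars of the length-adjusted level (CPM per kilobase of merged exon, axis from 0) of Id1, Id2, Id3 and Id4 in each of the 6 libraries. The bars sum to between 81.1 and 84.5 in mock and between 63.1 and 63.7 in p140Cap libraries, and the Id1 segment, at 29.9 in mock and 13.1 in p140Cap cells on average, differs the most.

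Bmp4 (ENSMUSG00000021835; chromosome 14, 46383525 to 46390669, minus strand), which encodes a BMP ligand, had 0 reads in all 6 libraries. A count of 0 allows up to 3 reads per group, that is, 0.0201 CPM over the mock libraries and 0.0690 CPM over the p140Cap libraries, for counting error only. Bmp4 was therefore not tested, and a difference was not detectable at this depth.

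Both receptor genes among the members were well expressed. Bmpr2 (ENSMUSG00000067336; chromosome 1, 59764279 to 59878081, plus strand) encodes the type II receptor for BMPs and had 12977, 6551 and 5118 reads in mock and 2986, 2759 and 2547 reads in p140Cap libraries. Its normalized values were 169.6, 164.7 and 153.7 CPM in mock and 196.8, 187.9 and 187.1 CPM in p140Cap cells. The groups did not overlap, and the log2 fold change was 0.23 (edgeR, SE 0.05, adjusted p = 0.000634), called under all 13 alternatives.

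Bmpr1a (ENSMUSG00000021796; chromosome 14, 34411061 to 34503336, minus strand) encodes the type I receptor also known as ALK3. With 7923, 4050 and 2996 reads in mock and 1732, 1480 and 1472 reads in p140Cap libraries, it was at 103.5, 101.8 and 90.0 CPM in mock and 114.2, 100.8 and 108.1 CPM in p140Cap cells. p140Cap replicate 2 lay below 2 of the mock libraries, so the groups overlapped. The log2 fold change was 0.13 (edgeR, SE 0.06, 95% interval -0.00099 to 0.26, adjusted p = 0.0704). It passed the test without mock replicate 1 (edgeR, adjusted p = 0.0454) and without p140Cap replicate 2 (edgeR, adjusted p = 0.0207).

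The Smads of the pathway moved in different directions. Smad1 (ENSMUSG00000031681; chromosome 8, 79338395 to 79399428, minus strand), a receptor-regulated Smad, had 1203, 661 and 547 reads in mock and 327, 299 and 275 reads in p140Cap libraries. It was at 15.7, 16.6 and 16.4 CPM in mock cells and at 21.6, 20.4 and 20.2 CPM in p140Cap cells. The groups were well apart, with a log2 fold change of 0.35 (edgeR, SE 0.07, adjusted p = 0.000206), the largest increase among the members. Under the 13 alternatives it lay between 0.32 and 0.45 and was called in each.

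Smad5 (ENSMUSG00000021540; chromosome 13, 56703010 to 56742378, plus strand) encodes a close relative of Smad1 with the same role. It had 9241, 4920 and 3758 reads in mock and 1683, 1554 and 1431 reads in p140Cap libraries, or 120.8, 123.7 and 112.8 CPM against 110.9, 105.9 and 105.1 CPM. The groups came close without overlapping. The log2 fold change was -0.15 (edgeR, SE 0.05, adjusted p = 0.013). The call was lost without mock replicate 2 (edgeR, adjusted p = 0.0523) and without p140Cap replicate 3 (edgeR, adjusted p = 0.0535).

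The ratio of Smad1 to Smad5 reads within a library was 0.130, 0.134 and 0.146 in mock and 0.194, 0.192 and 0.192 in p140Cap libraries. The log2 difference was 0.50, with no overlap between groups and p = 0.1 by the two-sided exact permutation test, the smallest p possible here. Per kilobase of exon, Smad5 remained the more abundant in both groups.

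Smad6 (ENSMUSG00000036867; chromosome 9, 63953076 to 64022085, minus strand) encodes an inhibitory Smad that blocks BMP receptors and is itself induced by BMPs. It had 1198, 577 and 581 reads in mock and 228, 244 and 195 reads in p140Cap libraries. The normalized values of 15.7, 14.5 and 17.4 CPM in mock and 15.0, 16.6 and 14.3 CPM in p140Cap cells were interleaved. Its log2 fold change was -0.04 (edgeR, SE 0.09, 95% interval -0.23 to 0.14, adjusted p = 0.659), and without mock replicate 3 it turned to 0.01 (edgeR, adjusted p = 0.895).

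**Figure D3:**
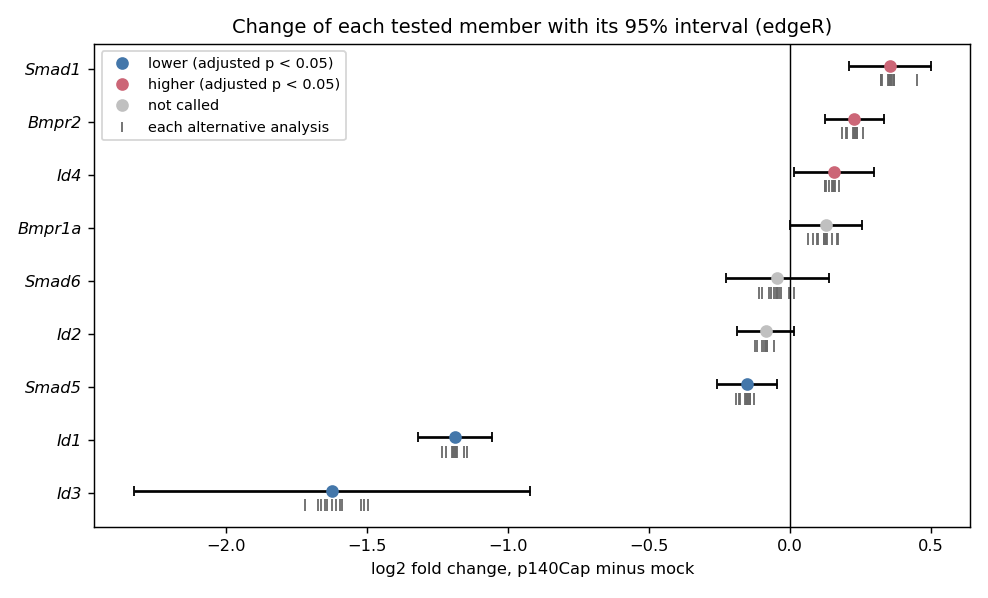
Log2 fold change (p140Cap minus mock) of the 9 tested members from edgeR with its 95% interval, coloured by call at an adjusted p of 0.05, with the values under each alternative analysis as ticks below. Id3 passed the low-count filter through the mock group alone, so its interval and colour are a description. Id1 at -1.19 and Id3 at -1.62 stand apart from the other members, which lie between -0.15 and 0.35.

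**Figure D4:**
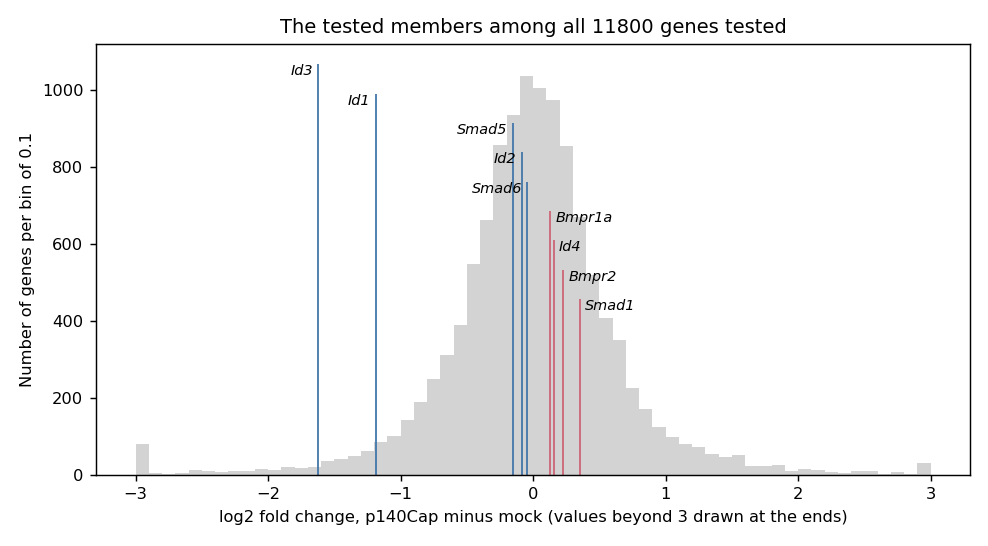
Histogram of the log2 fold changes of all 11800 genes tested (bins of 0.1) with vertical lines at the tested members, blue for negative and red for positive values. Line heights only separate the labels. Id1 and Id3 lie in the lower tail, where 3.6% and 1.8% of genes are lower still, and the other members lie within the bulk of the distribution.

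In the GENCODE annotation, exons of Id1, Id2, Id3, Id4, Bmp4, Bmpr1a, Bmpr2 and Smad1 are overlapped by annotated genes on the other strand, and exons of Bmpr2 and Smad5 also on the same strand. Of these genes, Gm15217, opposite to Bmp4, has a row of its own in the deposited counts. Libraries were stranded, but the sources used here do not give whether reads were counted by strand, so a share of reads from such partners cannot be told apart.

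Genes of the pathway beyond the members were described from 7 lists with 81 genes in all, of which 80 had a row in the deposited counts and 38 passed the low-count filter. Among the 38 tested, 11 were lower (28.9%), 12 were higher (31.6%) and 15 were not called, beside 35.9% and 35.2% among all genes. These shares of all genes are also the background for the counts of each list below. The 11 lower genes include Msx1, although it passed the low-count filter through the mock group alone. The median log2 fold change of the 38 tested genes was 0.02.

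Of 13 further ligands, 6 had no read in any library (Bmp2, Bmp3, Bmp8a, Bmp10, Gdf2 and Gdf6), and only Bmp6 and Bmp7 could be tested. Both were higher. Bmp7 had 320, 122 and 135 reads in mock and 85, 85 and 69 reads in p140Cap libraries, and rose from 3.77 ± 0.610 to 5.49 ± 0.375 CPM (SD, n = 3 each), a log2 fold change of 0.53 (edgeR, SE 0.14, adjusted p = 0.00293). Bmp6, with 206 reads over the mock and 95 over the p140Cap libraries, had a log2 fold change of 0.68 (edgeR, SE 0.21, adjusted p = 0.00916). Its groups overlapped, and the call was lost without p140Cap replicate 1 (adjusted p = 0.0647) or replicate 2 (adjusted p = 0.0607). Bmp6 was named after its values were seen.

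Among receptors and co-receptors, 7 of 10 were tested, of which 1 was lower, 2 were higher and 4 were not called. Bmpr1b, the other classical type I receptor for BMPs, had no read in any library. Acvr2a, a type II receptor for activins and BMPs, fell from 30.4 ± 1.42 to 26.3 ± 0.458 CPM (log2 fold change -0.21, edgeR, SE 0.06, adjusted p = 0.00598). Acvr1, a further type I receptor, was at 27.3 CPM in mock and 27.1 CPM in p140Cap cells and was not called (edgeR, adjusted p = 0.865).

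Of 19 extracellular regulators, 7 had no read in any library (among them the antagonists Nog, Chrdl1, Sostdc1, Sost and Cer1, and the protease gene Tll1), and 5 were tested, of which 2 were lower and 1 was higher. Bmp1, which despite its name encodes a procollagen C-proteinase that also cleaves the BMP antagonist Chordin, fell from 279 ± 5.17 to 175 ± 11.7 CPM (log2 fold change -0.68, edgeR, SE 0.05, adjusted p = 6.99e-09). Crim1, a transmembrane protein that binds BMPs, had a log2 fold change of -0.42 (edgeR, adjusted p = 1.01e-05). Fstl3, a secreted binder of activins and some BMPs, rose from 1.41 ± 0.379 to 3.49 ± 0.356 CPM (log2 fold change 1.34, edgeR, SE 0.19, adjusted p = 9.86e-06). The rule that named these 3 genes takes only genes whose groups do not overlap, which held for 73.4% of all genes tested.

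Of 10 intracellular transducers and regulators, 9 were tested, and 3 were lower, 3 were higher and 3 were not called. Smad9, the third receptor-regulated Smad of the pathway, had no read in any library. The ubiquitin ligase genes Smurf2 and Smurf1, whose products degrade Smad1 and Smad5, rose by 0.38 (edgeR, adjusted p = 2.05e-06) and 0.27 (edgeR, adjusted p = 0.000178) on the log2 scale. Fkbp1a, which encodes a protein that holds type I receptors inactive, fell by 0.55 on the log2 scale (edgeR, adjusted p = 2.35e-08). The pseudoreceptor gene Bambi, also a BMP target, fell by 0.32 (edgeR, adjusted p = 6.1e-05) and Lemd3, whose product binds Smads at the nuclear envelope, by 0.25 (edgeR, adjusted p = 0.000389). Zfyve16, a Smad anchor on endosomes, was at 0.14 (edgeR, adjusted p = 0.0356), a call lost with DESeq2, without a low-count filter, with thinned libraries and without any 1 of 4 libraries (mock replicates 2 and 3, p140Cap replicates 1 and 3). Smad4, the common partner, was at -0.05 and was not called (edgeR, adjusted p = 0.412), and the inhibitory Smad7 was at -0.14 and was not called (edgeR, adjusted p = 0.0548).

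Of 14 further BMP target genes, 7 were tested, with 2 lower, 2 higher and 3 not called. Msx1, a homeobox gene, was read 171, 77 and 72 times in mock and 2, 1 and 1 times in p140Cap cells. Pooled over each group, mock cells had 23.2 times the level of p140Cap cells (95% exact binomial interval 8.99 to 85.8, for counting error only), and its fitted log2 fold change was -4.47. Msx1 is 1 of the 2 lower genes, but it passed the low-count filter through the mock group alone, so its fitted value is given as a description without its p. Junb, a subunit of the transcription factor AP-1, rose by 0.48 on the log2 scale (edgeR, adjusted p = 7.2e-06) and Runx2, a regulator of bone formation, by 0.46 (edgeR, adjusted p = 0.00048). Hey1 was the most abundant target tested by CPM per kilobase, at 99.9 in mock and 97.0 in p140Cap cells, and was not called (edgeR, adjusted p = 0.418).

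Among bHLH factors, the partners of Id proteins, 5 of 12 were tested. The E protein genes Tcf3 and Tcf4 were at -0.21 (edgeR, adjusted p = 0.0147) and -0.20 (edgeR, adjusted p = 0.0138) on the log2 scale, and Tcf12 was at 0.09 and was not called (edgeR, adjusted p = 0.106). The groups overlapped for Tcf3. The call of Tcf4 was lost without mock replicate 1 (adjusted p = 0.0531), without p140Cap replicate 2 (adjusted p = 0.067) and after thinning to equal totals (adjusted p = 0.0617). Twist1, a bHLH factor of mesenchymal cells, rose from 17.0 ± 1.81 to 21.3 ± 0.253 CPM (log2 fold change 0.33, edgeR, SE 0.08, adjusted p = 0.00161). Of 3 genes for the turnover of Id proteins, Usp1, which encodes a deubiquitinase that stabilizes them, fell from 94.9 ± 7.28 to 49.9 ± 2.63 CPM (log2 fold change -0.93, edgeR, SE 0.06, adjusted p = 1.46e-09). The ubiquitin ligase gene Huwe1 was not called (edgeR, adjusted p = 0.476), and Fzr1, an activator of the anaphase-promoting complex, was at 0.16 (edgeR, adjusted p = 0.0473), with overlapping groups and a call not recomputed under the alternatives.

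**Figure D5:**
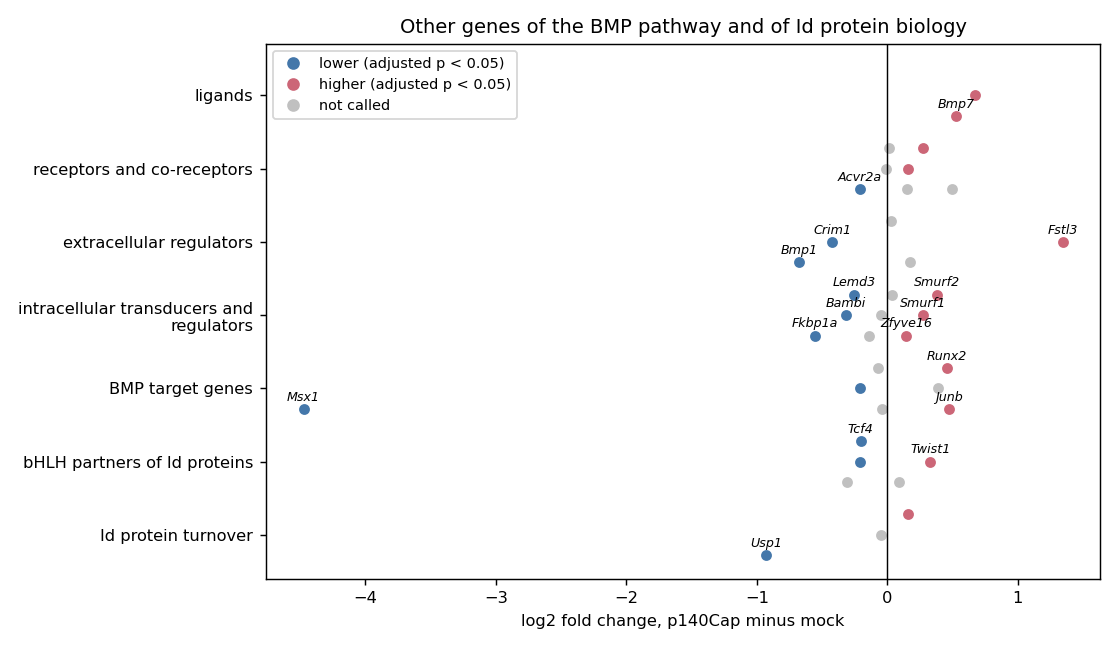
Log2 fold change (p140Cap minus mock) of the 38 tested genes of the 7 lists, 1 point per gene, coloured by call at an adjusted p of 0.05. Points are spread vertically within a list to keep them apart, and the genes with the largest changes and no overlap between groups are named. Msx1 at -4.47, which passed the low-count filter through the mock group alone, lies far below the others, which range from -0.93 (Usp1) to 1.34 (Fstl3).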

How the data were processed

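Poly(A)-selected (per the labels), stranded libraries from TuBo cells were sequenced on an Illumina NextSeq instrument, 3 of them from mock and 3 from p140Cap cells. The authors deposited counts: whole numbers of reads for 21960 genes, not normalized, with a column per library. The submitters' processing notes name STAR 2.5, RSEM and mm10, with no roles, whereas the paper names GRCm39. RSEM estimates would have been rounded before deposit.

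The counts were scaled by TMM factors and passed through edgeR's filterByExpr, which left 11800 genes. These were fitted in edgeR 4.0.16 under R 4.3.3, with condition as the sole term, by its quasi-likelihood method. Benjamini-Hochberg adjustment was over all of these genes, with a threshold of 0.05. An SE is the size of the log2 fold change over the root of F, and 95% intervals use the degrees of freedom of the test. CPM values use TMM-adjusted library sizes. The scripts were first tested on simulated data. For pairs of libraries within a group, the mean chi-square per gene (20 reads or more in the pair) was between 1.75 and 10.7, against 1 from sampling noise alone, so no library duplicated another.

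The members and lists were chosen with earlier results of these data known. Genes named are all members, Srcin1, in each list up to 3 genes called lower and 3 called higher with the largest change and no overlap between groups, and for each Id gene the 3 genes with the closest pattern, some of which are not reported here. Bmp6, Bmpr1b, Rgmb, Neo1, Acvr1, Fst, Smad4, Smad7, Smad9, Dlx3, Hey1, Tcf3, Tcf12, Huwe1, Fzr1 and the genes without reads were named after their values were seen. Alternatives were DESeq2 1.42.0, RLE factors, no low-count filter, a minimum of 10 reads per library, voom of limma 3.58.1, thinning to the smallest total, leaving out each library, and the replicate number as a block.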

Additional observations from a re-analysis of the deposited data

How the results depend on the processing

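Id1, Bmpr2 and Smad1 kept their direction and their call under all 13 alternatives. Id4 was the least stable, with a log2 fold change of 0.15 with DESeq2 (adjusted p = 0.123), RLE factors (0.0509), a minimum of 10 reads (0.0587) and the replicate block (0.0863, edgeR), of 0.12 without a low-count filter and of 0.13 with thinned libraries, none of them called. With each library left out, log2 fold changes were between 0.13 and 0.17 for Id4, 0.064 and 0.17 for Bmpr1a, -0.19 and -0.13 for Smad5, -0.12 and -0.057 for Id2 and -0.11 and 0.013 for Smad6, the sole change of sign. The cause of these moves was not tested. Between 2 and 4 members were called lower and 2 or 3 higher under any alternative. Of 246 values for the 19 other genes recomputed, 234 kept their call, 12 lost it (Zfyve16, Tcf4 and Bmp6) and 0 changed sign. These genes include the overexpressed Srcin1, and Msx1, which passed the low-count filter through the mock group alone. Apart from Srcin1 and Bmp6, they were named because they were called without overlap between groups. The counts of kept calls are therefore no measure of the stability of the lists. With thinned libraries the log2 difference of the Smad1 to Smad5 ratio was 0.61, an alternative chosen after seeing the data for this ratio. Replicate numbers did not pair the samples. Deviations from the group means of same-numbered libraries correlated across genes at 0.0451, -0.473 and -0.0822, and no library correlated best with its own number. With the replicate block, 4054 genes were lower and 3980 higher, against 4231 and 4157, and among the members it ended only the call of Id4. Depth limits Id3, with 14 reads over the p140Cap libraries, and Bmp4, with none.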

Other observations

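Fst, which encodes the activin and BMP antagonist follistatin, was not tested for want of reads, which numbered 39, 17 and 9 in mock and 1, 0 and 0 in p140Cap cells. The pooled level in mock cells was 18.9 times that in p140Cap cells, with 95% exact binomial limits of 3.27 and 757. These limits treat the reads of a group as 1 pool and reflect nothing beyond counting error. It was singled out after its values were seen. Beside Bmp6, Tcf3 and Fzr1, the groups overlapped for 3 more genes called: the co-receptor genes Rgmb and Neo1 had log2 fold changes of 0.28 (adjusted p = 0.0168, edgeR) and 0.16 (adjusted p = 0.0153, edgeR), and the homeobox gene Dlx3 was at -0.21 (adjusted p = 0.0339, edgeR).

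The genes whose pattern over the 6 libraries was closest to that of each Id gene were found by the root-mean-square difference of centred log2 CPM. They were Cadm1 (0.0464), Lect1 (0.0513) and Tubb6 (0.0537) for Id1, with log2 fold changes between -1.24 and -1.19. For Id3 they were Dna2 (0.0644), Ccne2 (0.0889) and Dpy19l1 (0.0978). The closest to Id2 were Acsl3 (0.0149), Tspan12 (0.0164) and Nvl (0.0175), and those to Id4 included Mapk9 (0.0116) and Ubap1 (0.0149). With 6 libraries in 2 groups, this measure mostly follows the difference between the groups.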
